A study of Homo sapiens with 9 samples.

Results

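The genes of glucose use were followed in 33 members: glucose transporters, the enzymes of glycolysis, the lactate and pyruvate steps that follow it, and enzymes of the pentose phosphate pathway. They were chosen by symbol, with earlier results of these data known, and all 33 were found once each among the 33264 genes of the table and passed the minimum level for testing. The cells were U87MG, a human glioblastoma line, from which 9 poly-A RNA libraries had been sequenced, 3 in each of 3 groups. The first group was the parent line (parent). The second was a line grown continuously in 50 µM temozolomide, a DNA-alkylating drug used against glioblastoma (R50). The third was a line that had been released from the drug after 2 months of exposure to 50 µM (R50_OFF). How long before harvest it was released is not stated in the labels. Both resistant lines were derived from the parent by exposure to the drug and are described as clonal, so each stands for 1 clone. All the lines were grown in the same kind of medium, which held serum, added pyruvate and non-essential amino acids. Nothing says that the replicates of a group were separate cultures, so the p-values speak of the spread among these libraries and no further.

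Glycolysis splits glucose into pyruvate in a chain of cytosolic enzymes, and most steps have several isozymes encoded by separate genes. Pyruvate then either becomes lactate, which leaves the cell through monocarboxylate transporters, or enters mitochondria, where pyruvate dehydrogenase turns it into acetyl-CoA. The pentose phosphate pathway branches off after the hexokinase step and supplies ribose for nucleotides and NADPH for reduction. Glioblastoma cells are known for high glucose uptake and lactate release, and many glycolytic genes are known targets of hypoxia-inducible factors, which read short DNA elements with the core ACGTG or GCGTG.

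The promoters of 6 members with large changes or high levels are printed first, because these genes recur in the results. Each stretch runs 5′ to 3′ on the gene's strand from 250 bases before a RefSeq start to 50 bases after it (GRCh38.p14), and where RefSeq lists several starts the one with the most matches is shown. They are HK2 at chr2:74834920-74835219 (plus strand), PDK1 at chr2:172555840-172556139 (plus strand), ENO2 at chr12:6914330-6914629 (plus strand), LDHA at chr11:18394313-18394612 (plus strand), PC at chr11:66958334-66958633 (minus strand) and PCK2 at chr14:24094061-24094360 (plus strand). Capitals mark every ACGTG or GCGTG on either strand, and so also CACGTG, the E-box read by basic helix-loop-helix factors, which contains ACGTG on both strands.
HK2: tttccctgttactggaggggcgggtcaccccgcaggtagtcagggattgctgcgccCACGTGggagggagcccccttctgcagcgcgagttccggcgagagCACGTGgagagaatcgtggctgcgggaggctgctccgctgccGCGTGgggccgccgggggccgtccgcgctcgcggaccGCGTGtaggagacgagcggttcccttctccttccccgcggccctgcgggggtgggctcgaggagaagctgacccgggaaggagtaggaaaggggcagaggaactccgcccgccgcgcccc
PDK1: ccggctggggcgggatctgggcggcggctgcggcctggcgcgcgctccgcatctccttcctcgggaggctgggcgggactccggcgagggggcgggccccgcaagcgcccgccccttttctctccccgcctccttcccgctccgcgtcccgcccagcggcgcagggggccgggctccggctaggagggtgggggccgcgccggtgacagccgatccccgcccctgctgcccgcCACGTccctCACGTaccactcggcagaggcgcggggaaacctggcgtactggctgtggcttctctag
ENO2: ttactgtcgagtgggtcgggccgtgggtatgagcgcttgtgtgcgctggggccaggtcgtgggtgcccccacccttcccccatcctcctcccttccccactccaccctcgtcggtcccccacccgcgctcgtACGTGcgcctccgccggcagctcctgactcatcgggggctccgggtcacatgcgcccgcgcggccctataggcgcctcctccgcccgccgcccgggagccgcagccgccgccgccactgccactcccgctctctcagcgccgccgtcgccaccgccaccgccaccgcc
LDHA: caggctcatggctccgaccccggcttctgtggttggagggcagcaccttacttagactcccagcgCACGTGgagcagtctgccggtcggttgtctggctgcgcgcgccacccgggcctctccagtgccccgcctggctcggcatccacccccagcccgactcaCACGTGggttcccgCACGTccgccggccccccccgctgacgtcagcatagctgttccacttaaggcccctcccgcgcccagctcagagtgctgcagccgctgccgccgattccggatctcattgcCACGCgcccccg
PC: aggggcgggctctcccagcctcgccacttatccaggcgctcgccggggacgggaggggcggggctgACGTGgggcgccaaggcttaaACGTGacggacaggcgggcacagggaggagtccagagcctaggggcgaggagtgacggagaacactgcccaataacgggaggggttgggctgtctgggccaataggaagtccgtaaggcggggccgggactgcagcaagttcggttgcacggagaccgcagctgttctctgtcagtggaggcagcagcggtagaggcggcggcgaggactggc
PCK2: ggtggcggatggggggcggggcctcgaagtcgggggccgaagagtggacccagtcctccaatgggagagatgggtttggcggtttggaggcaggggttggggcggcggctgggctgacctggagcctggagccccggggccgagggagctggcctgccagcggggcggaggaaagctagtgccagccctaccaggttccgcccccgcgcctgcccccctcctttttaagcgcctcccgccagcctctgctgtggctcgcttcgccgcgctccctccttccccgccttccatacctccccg

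RefSeq entries were matched for 31 members, with 58 promoters in all. ACGTG or GCGTG stood on either strand in 34 of these 58 (58.6%), beside 48.4% of all 35116 promoters of the same length. CACGTG stood in 6 of the 58 (10.3%), beside 7.26% of all promoters. HK2 and LDHA each carried CACGTG in the window printed but not in their other listed window, whereas the PCK2 window held none of these letters. The PDK1 window that is not printed held no match, and neither did the PC windows that are not printed. A match is a description of the sequence and not a binding site.

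The libraries held 28.7 M to 35.8 M traced reads and 22904 to 24892 genes above 0, and 16456 genes were tested. Values are the deposited normalized signal per kilobase of median transcript, as mean ± SD over 3 libraries where a mean is given. Changes are differences of log2(signal + 1), and every adjusted p is from limma with Benjamini-Hochberg adjustment over all tested genes at a threshold of 0.05. A value given as times the parent mean is such a change taken off the log scale. It is thus a ratio of geometric means of signal + 1. R50 replicate 2 stood apart from its group, with a chi-square per gene of 13.5 and 16.2 against R50 replicates 1 and 3, which differed from each other by 4.28. The summed signal of R50 was also smaller, at 30596093 to 31252023 per library beside 34074521 to 34541980 in parent and 33180605 to 34177127 in R50_OFF. Markers of mesenchymal glioma lines were abundant, with VIM at 160406 to 272350.0. All 5 on the list fell in R50, beside 31.7% of all tested genes. In R50_OFF 3 were lower than in parent, beside 25.7% of all tested genes, and against R50 4 were higher and 1 lower. Of the 4 glial markers in the table, GFAP (0.938 to 8.18) and S100B (0 to 1.78) were at or near 0 in every library. The other glial markers were low but differed between the lines: SOX2 was listed at 0 in parent, 35.9 to 46.0 in R50 and 23.0 to 28.1 in R50_OFF, and OLIG2 was 17.1 to 24.3, 15.8 to 18.2 and 61.7 to 82.4 in the same order. The endothelial marker PECAM1 was 329.5 to 366, 209 to 262 and 125 to 137. CDH5, the other endothelial marker, was low but rose in R50, at 0 to 1.75, 10.7 to 27.9 and 0 to 0.536 in the same order. The epithelial marker EPCAM was 26.7 to 39.1, 5.84 to 13.9 and 24.5 to 35.9, lowest in R50, and CDH1 was 0 to 4.00 over all libraries. The part of these marker differences in the results was not tested. The blood markers PTPRC, CD3E and HBB did not pass 3.65 in any library. In bulk RNA, fewer cells with a transcript and less of it per cell cannot be told apart.

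The first comparison asked how the genes of glucose use stood in cells kept in temozolomide. R50 had lower levels of most transcripts for the steps from glucose to pyruvate: 14 of the 15 genes fell as deposited, and ALDOC, the brain form of aldolase, rose. After quantile normalization PKM turned, and GAPDH, whose rank was the same in all parent and R50 libraries, stood at 0. Over all 33 members 22 fell, 4 rose and 7 did not pass, so that 78.8% were called, beside 63.3% of all tested genes (31.6% higher and 31.7% lower). The median change of the members was -0.33, beside 0.02 for all tested genes. The size differed widely, from -0.22 for PKM to -1.37 for ENO2 among the glycolytic genes that fell. PC, which makes oxaloacetate from pyruvate, and PCK2, which makes phosphoenolpyruvate from oxaloacetate, stood at the other end with changes of 1.41 and 1.64. Under other scalings of the libraries the split was less one-sided: 8 rose and 18 fell after quantile normalization, and 8 rose and 16 fell after scaling to the total signal. Scaling to the total signal moved the median of all tested genes to 0.17, and the members' median stood 0.34 below that of all genes both as deposited and with that scaling, which moves all genes of a library alike. After quantile normalization it stood 0.17 below. Among the 500 most abundant genes that are not members, a set chosen after the values were seen, 47.8% were lower and 23.6% higher in R50, with a median change of -0.11. The members took 3.24% to 3.37% of the summed signal in parent, 2.90% to 3.03% in R50 and 2.96% to 3.18% in R50_OFF.

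The second comparison asked what remained different from the parent in the line off the drug, and the third what separated the drug-resistant lines from each other. In R50_OFF against parent, 12 members were lower and 8 higher, so that 60.6% were called, beside 52% of all tested genes (26.3% higher and 25.7% lower), and the members' median change was -0.06 beside 0.00. In R50_OFF against R50, 18 members were higher and 5 lower, so that 69.7% were called, beside 59.5% of all tested genes (30.2% higher and 29.3% lower), and the median change was 0.25 beside -0.00. With other scalings the split between R50_OFF and R50 was 15 higher and 7 lower (quantile normalization) or 14 higher and 7 lower (total signal). Of the 500 most abundant genes that are not members, 56.4% were higher and 16% lower in R50_OFF than in R50. Their median change was 0.19, beside 0.25 for the members. By mean signal, 11 of the 33 members reached the level of these abundant genes. Whether the rises are linked was not tested. Against parent, 40.8% of these abundant genes were higher and 30% lower in R50_OFF, with a median change of 0.08. The groups of the 3 comparisons share libraries, so that the comparisons are not independent of each other. Groups without overlap were common: of 16456 tested genes, 5706 lay wholly higher and 5523 wholly lower in R50 than in parent. The counts were 5206 and 5124 in R50_OFF against parent and 5241 and 5189 in R50_OFF against R50. For the 33 members they were 5 and 22, 10 and 13, and 18 and 5 in the same order.

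**Figure D1:**
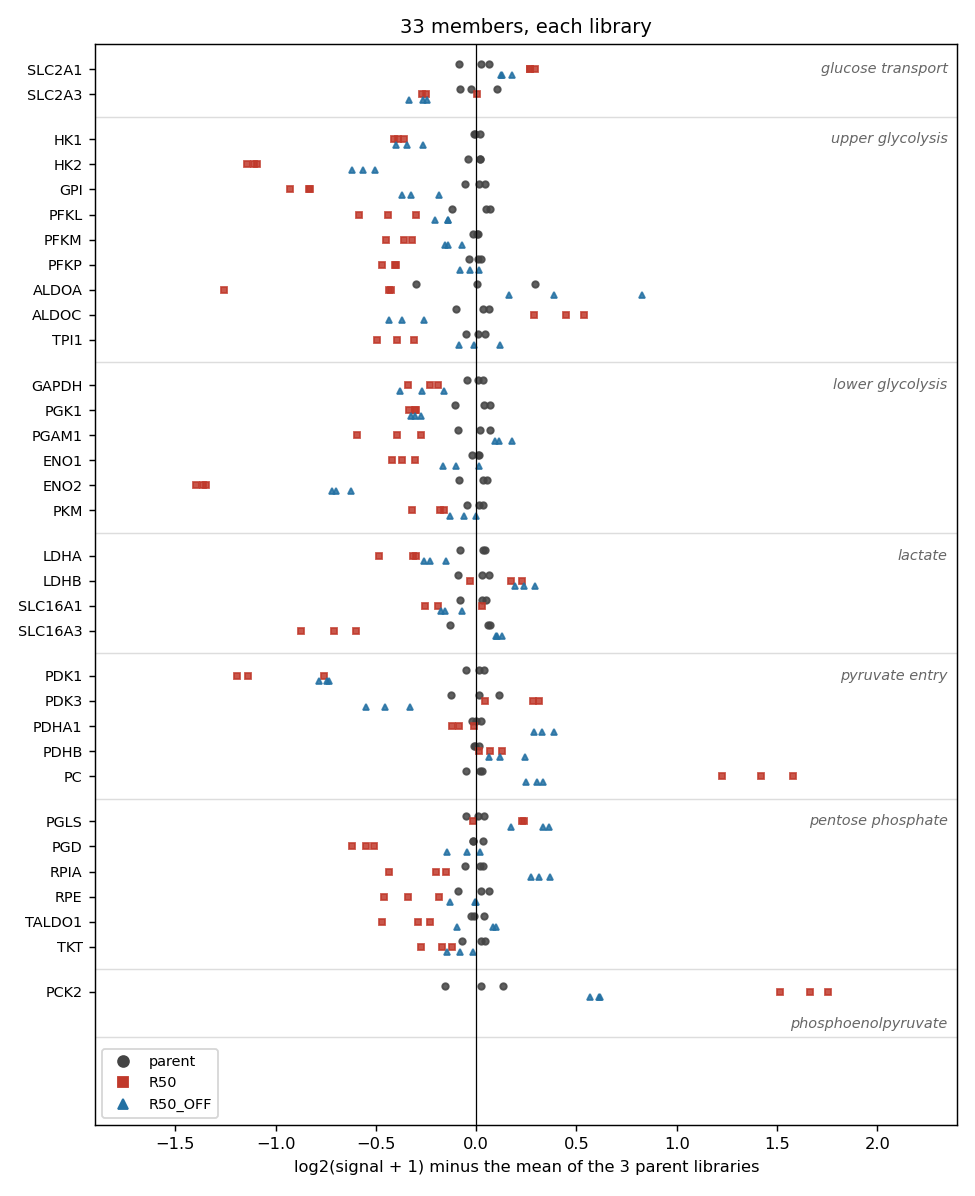
Each row is a member and each point a library; the x axis gives log2(signal + 1) minus the mean of the 3 parent libraries, with rows grouped by role. R50 libraries lie left of the parent in 14 of the 15 glycolytic enzymes (values as deposited) and far right in PC and PCK2. After quantile normalization PKM turned, and GAPDH, of the same rank in all parent and R50 libraries, stood at 0. R50_OFF libraries lie nearer to the parent in ENO2, HK2, PC and PCK2.

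Glucose enters through the transporters SLC2A1 and SLC2A3. SLC2A1 (ENSG00000117394, chr1:42925353-42958893, minus strand) had signals of 19899.8, 22098 and 21516 in parent, 25516, 25470.4 and 25890.3 in R50 and 23926, 23112 and 23048 in R50_OFF. All 3 R50 libraries lay above the R50_OFF libraries, which lay above the parent. SLC2A1 rose in R50 (log2 change 0.28, SE 0.046, adjusted p = 3.37e-04), and the smaller differences of R50_OFF from parent (0.14 (adjusted p = 0.0233)) and from R50 (-0.13 (adjusted p = 0.0281)) were lost when single libraries were left out. Those losses came without parent replicate 1 (0.10) or R50_OFF replicate 1 (0.13) against parent, and against R50 with any R50_OFF library but replicate 1, or R50 replicate 1 or 3, left out (-0.14 to -0.12). SLC2A3 (ENSG00000059804, chr12:7919230-8019007, minus strand), a transporter with high glucose affinity known from neurons, had 2547, 2648 and 2896 in parent, 2235, 2264 and 2705 in R50 and 2243, 2268 and 2136 in R50_OFF. R50 replicate 3 fell among the parent libraries and the change in R50 did not pass (log2 change -0.17, SE 0.076, adjusted p = 0.0715), although without that replicate it did (-0.26, adjusted p = 0.00422). SLC2A3 was lower in R50_OFF than in parent (log2 change -0.28, SE 0.076, adjusted p = 0.00962).

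Hexokinase phosphorylates glucose and so holds it in the cell. HK2 (ENSG00000159399, chr2:74834127-74893359, plus strand) is the inducible hexokinase, and of its listed promoters only the one printed above holds CACGTG. Its signals were 2397, 2499 and 2502 in parent, 1117, 1145 and 1156 in R50 and 1666, 1738 and 1603 in R50_OFF. The 3 groups did not overlap, with R50 lowest and R50_OFF between R50 and parent. HK2 in R50 was 0.462 times the parent mean (log2 change -1.11, SE 0.047, adjusted p = 7.50e-09), and it was lower in R50_OFF than in parent (log2 change -0.56, SE 0.047, adjusted p = 3.41e-06) and higher than in R50 (log2 change 0.55, SE 0.047, adjusted p = 2.83e-06). HK1 (ENSG00000156515, chr10:69269984-69401884, plus strand), the widely expressed hexokinase, had 26065, 26467 and 25912 in parent, 20387, 19672 and 19929.7 in R50 and 21730.3, 19834 and 20568 in R50_OFF. Both resistant lines lay below the parent and overlapped each other. HK1 fell by less than HK2 in R50 (log2 change -0.39, SE 0.043, adjusted p = 1.65e-05) and was likewise lower in R50_OFF (log2 change -0.34, SE 0.043, adjusted p = 7.87e-05).

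GPI (ENSG00000105220, chr19:34359480-34402413, plus strand) interconverts glucose phosphate and fructose phosphate, the step after hexokinase. Its signals were 21320.5, 22843 and 22448 in parent, 12507, 11649.6 and 12472 in R50 and 19523, 17178 and 17741 in R50_OFF. R50 libraries were the lowest by far and no groups overlapped. GPI fell in R50 (log2 change -0.86, SE 0.056, adjusted p = 2.13e-07) and was lower in R50_OFF than in parent by less (log2 change -0.29, SE 0.056, adjusted p = 0.00121). Phosphofructokinase, the committed step of glycolysis, is built from liver (PFKL), muscle (PFKM) and platelet (PFKP) subunits. PFKL (ENSG00000141959, chr21:44300051-44327376, plus strand) had 2527, 2842 and 2879.6 in parent, 2022, 1830.3 and 2232 in R50 and 2487, 2376 and 2490.2 in R50_OFF. PFKM (ENSG00000152556, chr12:48105139-48146404, plus strand) had 7429, 7308 and 7407 in parent, 5911, 5399 and 5759 in R50 and 7021, 6696 and 6632 in R50_OFF. PFKP (ENSG00000067057, chr10:3066333-3137718, plus strand) had 26882, 27757 and 28004 in parent, 20826, 19856 and 20874 in R50 and 27773, 26043 and 26951 in R50_OFF. All 3 subunits fell in R50 by a like amount, -0.44, -0.38 and -0.43 (adjusted p = 3.64e-04, 2.72e-05 and 6.96e-06), with no overlap between R50 and parent. In R50_OFF the changes from parent were -0.16 (adjusted p = 0.0893), -0.12 (adjusted p = 0.0409) and -0.03 (adjusted p = 0.543), and the PFKM call was lost without any of 5 single libraries, among them each parent library (-0.13 to -0.12) and R50_OFF replicates 2 and 3 (-0.11).

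Aldolase splits the fructose bisphosphate. ALDOA (ENSG00000149925, chr16:30064164-30070457, plus strand), the muscle form, had 1168, 1439 and 1761 in parent, 1069, 599 and 1060.0 in R50 and 1608, 1881 and 2549 in R50_OFF. R50 replicate 2 was far below its group, and the parent and R50_OFF libraries overlapped. ALDOA fell in R50 (log2 change -0.71, SE 0.24, adjusted p = 0.0229), a call lost without R50 replicate 2 (-0.43, adjusted p = 0.0671) and without parent replicate 3 (-0.56, adjusted p = 0.0850), and it was higher in R50_OFF than in R50 (log2 change 1.17, SE 0.24, adjusted p = 0.00153). ALDOA shares 42.8% of its annotated exon bases with an overlapping gene on the same strand (ENSG00000285043), listed at 78.5 to 125, so its level is uncertain. ALDOC (ENSG00000109107, chr17:28573115-28576948, minus strand) had 5669, 6221 and 6363 in parent, 8282, 7428 and 8811 in R50 and 5075, 4500.4 and 4704 in R50_OFF. The 3 groups did not overlap, with R50 highest and R50_OFF lowest. ALDOC rose in R50 (log2 change 0.42, SE 0.072, adjusted p = 3.69e-04) and was lower in R50_OFF than in parent (log2 change -0.35, SE 0.072, adjusted p = 0.00175) and in R50 (log2 change -0.78, SE 0.072, adjusted p = 5.06e-06). TPI1, which interconverts the triose phosphates, fell from 43057 ± 1436 in parent to 32648 ± 2122 in R50 (log2 change -0.40, SE 0.064, adjusted p = 2.44e-04) and stood at 43304 ± 3144 in R50_OFF.

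The later steps, from GAPDH to PKM, hold the ATP-yielding reactions and some of the most abundant transcripts. All 6 of their genes fell in R50 as deposited (after quantile normalization PKM turned and GAPDH stood at 0), 3 were lower in R50_OFF than in parent, and 4 were higher in R50_OFF than in R50. These are 100%, 50% and 66.7% called, beside 63.3%, 52% and 59.5% of all tested genes. ENO1 ranked 1 to 2 among all genes by signal and GAPDH 1 to 2 by traced reads. GAPDH, the dehydrogenase often used as a reference gene, stood at 199417 ± 5647 in parent, 167450.0 ± 8721 in R50 and 165564 ± 12743 in R50_OFF. It fell in R50 (log2 change -0.25, SE 0.065, adjusted p = 0.00572) and was lower in R50_OFF than in parent (log2 change -0.27, SE 0.065, adjusted p = 0.00499). With scaling to the total signal the R50 change was -0.10 (adjusted p = 0.120). After quantile normalization the R50 change was 0. That normalization gives equal ranks equal values, and GAPDH ranked 5 by signal in every parent and R50 library. The 0 was thus fixed by the rank and cannot speak for or against the fall. PGK1, which makes the first ATP of the pathway, stood at 92644 ± 5909 in parent, 74504 ± 977 in R50 and 75127 ± 1332 in R50_OFF. The resistant lines were both lower than the parent in PGK1 (-0.31 and -0.30, adjusted p = 3.31e-04 and 6.33e-04) and overlapped each other; after quantile normalization the R50_OFF difference was -0.08 (adjusted p = 0.255). PGAM1, the phosphoglycerate mutase, fell in R50 from 1095 ± 61.6 to 819 ± 90.7 (log2 change -0.42, SE 0.079, adjusted p = 7.56e-04) and stood at 1198 ± 36.0 in R50_OFF, where its difference from parent did not pass (0.13 (adjusted p = 0.194)). GAPDH, PGAM1 and other members have near-identical pseudogene copies, so reads may be split between them.

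Enolase makes phosphoenolpyruvate, and its ENO2 form is known as the neuronal enolase. ENO2 (ENSG00000111674, chr12:6913745-6923698, plus strand) had signals of 14735, 16238 and 16021 in parent, 6159, 5939 and 6079.9 in R50 and 10135, 9492 and 9649.7 in R50_OFF. The 3 groups were far apart, with every R50 library at less than any R50_OFF library. ENO2 in R50 was 0.387 times the parent mean, the largest fall among the members (log2 change -1.37, SE 0.048, adjusted p = 1.89e-09), and in R50_OFF it was 0.623 times the parent mean (log2 change -0.68, SE 0.048, adjusted p = 1.00e-06). ENO1 (ENSG00000074800, chr1:8861000-8879190, minus strand), the common form, had 295377, 303184 and 301531 in parent, 243170.0, 223931 and 231834 in R50 and 302646, 267653 and 279390.0 in R50_OFF. R50 lay below both other groups, and R50_OFF replicate 1 lay among the parent libraries. ENO1 fell in R50 (log2 change -0.37, SE 0.058, adjusted p = 2.49e-04) and its difference between R50_OFF and parent did not pass (-0.08 (adjusted p = 0.25)). PKM, pyruvate kinase, whose splice forms the table does not separate, was 140431 ± 3819 in parent, 120649 ± 7027 in R50 and 134478 ± 6026 in R50_OFF. PKM fell in R50 (log2 change -0.22, SE 0.057, adjusted p = 0.00601) as deposited, but the direction turned after quantile normalization (0.22, adjusted p = 0.00648), and the call was lost with total-signal scaling (-0.07, adjusted p = 0.222). The rise of PKM in R50_OFF over R50 (0.16 (adjusted p = 0.035)) was lost without R50 replicate 2 (0.11), R50_OFF replicate 1 (0.13) or R50_OFF replicate 3 (0.16).

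Lactate dehydrogenase reduces pyruvate to lactate, with LDHA and LDHB as its muscle and heart subunits. LDHA (ENSG00000134333, chr11:18394560-18408425, plus strand) had 148447, 161621 and 160590.0 in parent, 125979, 127391 and 112075 in R50 and 141030.0, 131101 and 133434 in R50_OFF. Both resistant lines lay below the parent in LDHA, R50 the lower of them. LDHA fell in R50 (log2 change -0.37, SE 0.063, adjusted p = 4.07e-04), turned to 0.09 after quantile normalization, and was lower in R50_OFF than in parent (log2 change -0.21, SE 0.063, adjusted p = 0.0147), a call lost without parent replicate 2 (-0.19, adjusted p = 0.0557) and after quantile normalization (-0.03, adjusted p = 0.663). LDHB (ENSG00000111716, chr12:21635342-21757857, minus strand) had 3651, 3564 and 3278 in parent, 4094, 3941 and 3415 in R50 and 3999.8, 4277 and 4122 in R50_OFF. R50 replicate 3 lay among the parent libraries, and R50_OFF lay above all of them. LDHB was higher in R50_OFF than in parent (log2 change 0.24, SE 0.069, adjusted p = 0.0133), a call lost without parent replicate 3 (0.20, adjusted p = 0.0587), and its difference in R50 did not pass (0.12 (adjusted p = 0.144)) unless R50 replicate 3 was left out (0.20, adjusted p = 0.0120). LDHB shares 33.4% of its exon bases with an overlapping gene of the same strand, which is listed at 0 to 0.353.

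The monocarboxylate transporters SLC16A1 and SLC16A3 carry lactate, and SLC16A3 is known as the exporter of highly glycolytic cells. SLC16A3 (ENSG00000141526, chr17:82217934-82261129, plus strand) had signals of 11903, 13683 and 13603 in parent, 7971, 7122 and 8597 in R50 and 14259.6, 14028 and 13956 in R50_OFF. R50 lay far below the other groups, and the R50_OFF libraries lay just above the parent. SLC16A3 fell in R50 (log2 change -0.73, SE 0.072, adjusted p = 6.31e-06) and was higher in R50_OFF than in R50 (log2 change 0.84, SE 0.072, adjusted p = 3.06e-06), while its difference between R50_OFF and parent did not pass (0.11 (adjusted p = 0.223)). SLC16A1 (ENSG00000155380, chr1:112911847-112957593, minus strand) had 7325, 7902 and 8010.2 in parent, 6776, 7884 and 6478 in R50 and 6941, 7361 and 6858 in R50_OFF. R50 replicate 2 and R50_OFF replicate 2 lay among the parent libraries, and none of its differences passed (adjusted p = 0.105, 0.135 and 0.951); without R50 replicate 2 it fell in R50 (-0.22, adjusted p = 0.00293) and passed in R50_OFF (-0.13, adjusted p = 0.0270).

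Where a step has several isozymes, the log2 ratio of their signals within a library does not depend on how libraries are scaled to each other by a single factor. The level of such a ratio depends on the median transcript lengths the authors divided by, which by the traced steps were 5.278 kb for HK2 and 0.7285 kb for HK1, so only its change between groups is read here. With 3 libraries against 3, an exact two-sided permutation test cannot go below p = 0.1, and after adjustment over 27 tests of 9 ratios the lowest p was 0.129, so none could pass. The ENO2/ENO1 log2 ratio was -4.26 ± 0.06 in parent, -5.26 ± 0.03 in R50 and -4.86 ± 0.04 in R50_OFF. HK2/HK1 was -3.41 ± 0.04, -4.13 ± 0.05 and -3.63 ± 0.11 in the same order. In both pairs the groups did not overlap: the isozyme known as inducible or tissue-restricted stood lowest relative to its partner in R50, with R50_OFF between R50 and parent. The ALDOC/ALDOA ratio moved the other way in R50, from 2.08 ± 0.21 in parent to 3.21 ± 0.36 in R50, and was 1.27 ± 0.39 in R50_OFF. LDHA/LDHB was 5.49 ± 0.13 in parent, 5.00 ± 0.05 in R50 and 5.03 ± 0.10 in R50_OFF, so both resistant lines lay below the parent and overlapped each other; after quantile normalization the R50 difference shrank from -0.49 to -0.17. SLC2A1/SLC2A3 was higher in both resistant lines than in parent, by 0.45 in R50 and 0.43 in R50_OFF, and the resistant lines overlapped. SLC16A3/SLC16A1 differed from parent by -0.59 in R50 and 0.25 in R50_OFF, with no overlap. Of the phosphofructokinase ratios, PFKL/PFKM overlapped between all groups, whereas PFKP/PFKM was higher in R50_OFF than in parent by 0.09 and than in R50 by 0.14, without overlap in either case.

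**Figure D2:**
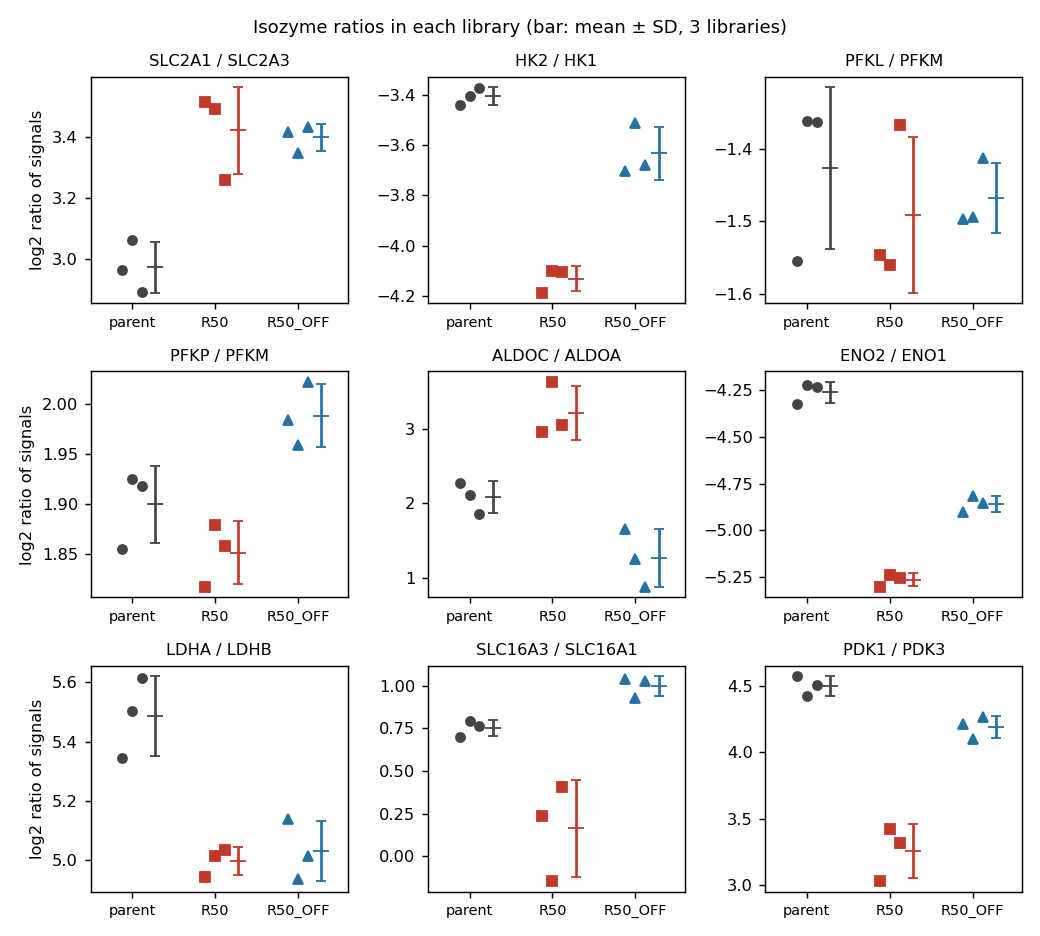
Log2 ratio of the signals of 9 isozyme pairs in each library (y axis, not starting at 0 and scaled separately per panel), with mean ± SD of 3 libraries beside the points. ENO2/ENO1, HK2/HK1 and PDK1/PDK3 are lowest in R50 and intermediate in R50_OFF, ALDOC/ALDOA is highest in R50, and PFKL/PFKM overlaps in all groups.

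Pyruvate dehydrogenase admits pyruvate to the citric acid cycle, and pyruvate dehydrogenase kinases switch it off by phosphorylation. PDK1 (ENSG00000152256, chr2:172555373-172608669, plus strand), a kinase known as a hypoxia target, had signals of 4972, 5290.5 and 5212 in parent, 2256, 3044 and 2343 in R50 and 3079, 3104 and 2989 in R50_OFF. Both resistant lines lay far below the parent, and R50 replicate 2 stood at the level of R50_OFF. PDK1 in R50 was 0.49 times the parent mean (log2 change -1.03, SE 0.093, adjusted p = 3.09e-06), and it was lower in R50_OFF than in parent too (log2 change -0.75, SE 0.093, adjusted p = 5.90e-05). The difference between R50_OFF and R50 in PDK1 (log2 change 0.28, SE 0.093, adjusted p = 0.0254) came with overlapping groups: it was 0.41 (adjusted p = 1.82e-05) without R50 replicate 2, and it was lost without R50 replicate 1 (0.19), R50 replicate 3 (0.22), R50_OFF replicate 1 (0.27) or R50_OFF replicate 2 (0.26). PDK3 (ENSG00000067992, chrX:24465244-24550466, plus strand), another kinase of the family, had 208, 245 and 229 in parent, 276, 283 and 234 in R50 and 165, 180.1 and 155 in R50_OFF. R50_OFF lay below both other groups, and R50 overlapped the parent. PDK3 was lower in R50_OFF than in parent (log2 change -0.45, SE 0.10, adjusted p = 0.00402) and in R50 (log2 change -0.66, SE 0.10, adjusted p = 2.64e-04), and its R50 difference from parent passed only without R50 replicate 3 or with scaling to the total signal (0.30 and 0.37, adjusted p = 0.0283 and 0.0103; 0.21 (adjusted p = 0.0942) otherwise). The PDK1/PDK3 log2 ratio was 4.50 ± 0.07 in parent, 3.26 ± 0.21 in R50 and 4.19 ± 0.08 in R50_OFF, with no overlap.

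PDHA1 (ENSG00000131828, chrX:19343893-19361718, plus strand) and PDHB encode the subunits of the decarboxylase component of pyruvate dehydrogenase. PDHA1 had 5305, 5465 and 5372 in parent, 5334, 4951 and 5078 in R50 and 7052, 6572 and 6758 in R50_OFF. R50_OFF lay above both other groups, which overlapped. PDHA1 was higher in R50_OFF than in parent (log2 change 0.34, SE 0.044, adjusted p = 9.45e-05) and in R50 (log2 change 0.41, SE 0.044, adjusted p = 1.78e-05), with no call in R50 against parent (-0.07 (adjusted p = 0.18)). PDHB stood at 2275 ± 19.0 in parent, 2389 ± 92.6 in R50 and 2514 ± 163 in R50_OFF, and its rise in R50_OFF over parent (0.14 (adjusted p = 0.0453)) was lost without any of 6 single libraries, with 0.09 without R50_OFF replicate 1 and 0.14 to 0.15 without R50_OFF replicate 3, R50 replicate 1 or any parent library.

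Pyruvate carboxylase, PC (ENSG00000173599, chr11:66848417-66958386, minus strand), makes oxaloacetate from pyruvate inside mitochondria. PC had signals of 459, 437 and 462 in parent, 1214, 1060.0 and 1355 in R50 and 571, 538 and 558 in R50_OFF. Every R50 library lay far above the others, and R50_OFF lay slightly above the parent. PC in R50 was 2.66 times the parent mean (log2 change 1.41, SE 0.082, adjusted p = 9.45e-08), and it was higher in R50_OFF than in parent by much less (log2 change 0.30, SE 0.082, adjusted p = 0.0111). PCK2 (ENSG00000100889, chr14:24094053-24110598, plus strand), the mitochondrial enzyme that turns oxaloacetate into phosphoenolpyruvate, had 183, 224 and 207 in parent, 691, 584 and 649.8 in R50 and 313, 313 and 303 in R50_OFF. Here too the groups did not overlap, with R50 highest and parent lowest. PCK2 in R50 was 3.13 times the parent mean, the largest rise among the members (log2 change 1.64, SE 0.09, adjusted p = 5.56e-08), and R50_OFF was higher than parent (log2 change 0.60, SE 0.09, adjusted p = 2.30e-04) and lower than R50 (log2 change -1.05, SE 0.09, adjusted p = 2.96e-06).

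**Figure D3:**
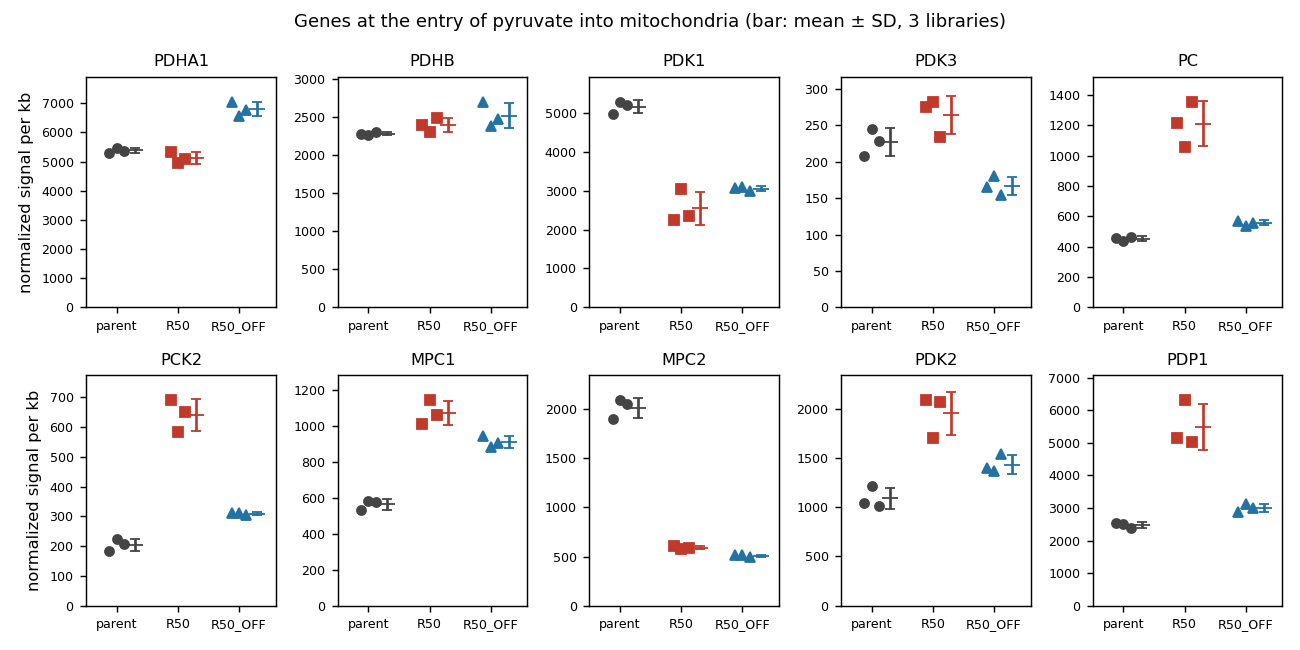
Normalized signal per kilobase (y axis from 0) of 10 genes at the entry of pyruvate into mitochondria in each library of the 3 groups, with mean ± SD of 3 libraries beside the points. PC, PCK2, PDP1, PDK2 and MPC1 are highest in R50, PDK1 and MPC2 are low in both resistant lines, and PDHA1 is highest in R50_OFF.

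Of the 6 pentose phosphate enzymes 5 fell in R50 (TKT at 0.02 after quantile normalization), and the change of the other, PGLS, did not pass (0.15 (adjusted p = 0.101)). In R50_OFF none was lower than in parent and 2, RPIA and PGLS, were higher, and 4 were higher in R50_OFF than in R50. The shares called in these 3 comparisons were 83.3%, 33.3% and 66.7%, beside 63.3%, 52% and 59.5% of all tested genes. PGD, the oxidative enzyme that yields NADPH and pentose, fell from 12496 ± 262 in parent to 8476 ± 322 in R50 (log2 change -0.56, SE 0.051, adjusted p = 3.11e-06) and stood at 12017 ± 702 in R50_OFF. PGLS, the lactonase before it, stood at 1932 ± 61.0, 2150.4 ± 206 and 2367 ± 164 in parent, R50 and R50_OFF, and was higher in R50_OFF than in parent (log2 change 0.29, SE 0.075, adjusted p = 0.0072). RPIA (ENSG00000153574, chr2:88691673-88750929, plus strand), which makes the ribose phosphate used for nucleotides, had 454, 483 and 478 in parent, 424, 409.9 and 348 in R50 and 570.0, 609 and 586 in R50_OFF. The 3 groups did not overlap, with R50 lowest and R50_OFF highest. RPIA fell in R50 (log2 change -0.26, SE 0.079, adjusted p = 0.0128) and was higher in R50_OFF than in parent (log2 change 0.32, SE 0.079, adjusted p = 0.00588) and in R50 (log2 change 0.58, SE 0.079, adjusted p = 9.08e-05), while its fall in R50 was -0.11 (adjusted p = 0.243) with scaling to the total signal. RPE, the pentose epimerase, fell from 3286 ± 177 to 2624 ± 249 in R50 (-0.33 (adjusted p = 0.00211)), a change of -0.18 (adjusted p = 0.0623) with total-signal scaling. TALDO1 and TKT, which return pentose carbon to glycolysis, fell in R50 by -0.33 and -0.19 (adjusted p = 0.00157 and 0.0105), and the TKT change was -0.04 with total-signal scaling. Neither differed in R50_OFF from parent beyond the threshold (0.03 (adjusted p = 0.75) and -0.08 (adjusted p = 0.236)).

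Regulators of these enzymes were read as a list of 17 genes, 16 of them tested. In R50 against parent 4 rose and 7 fell, with a median of -0.04, so that 68.8% were called, near the 63.3% of all tested genes. In R50_OFF 4 were higher and 9 lower than in parent (median -0.29, 81.2% called beside 52%), and 5 were higher and 9 lower than in R50 (median -0.40, 87.5% called beside 59.5%). PFKFB4, which makes the bisphosphate that activates phosphofructokinase, had 8266, 9457 and 9087 in parent, 2904, 2981 and 2937 in R50 and 4723, 4392 and 4356 in R50_OFF. PFKFB4 was lowest in R50 and intermediate in R50_OFF, without overlap (log2 change -1.60, SE 0.055, adjusted p = 1.70e-09 in R50 and log2 change -0.99, SE 0.055, adjusted p = 1.78e-07 in R50_OFF). EGLN3, an oxygen-sensing prolyl hydroxylase that marks hypoxia-inducible factors for decay, had 1718, 2361 and 2269 in parent, 701, 654 and 661 in R50 and 255, 215 and 195 in R50_OFF. It fell in R50 (-1.64 (adjusted p = 7.43e-07)) and was lower still in R50_OFF (-3.24 (adjusted p = 1.32e-08) against parent). PDK4, a further pyruvate dehydrogenase kinase, rose from 9.32 to 32.7 in parent to 82.9 to 103 in R50 (2.21 (adjusted p = 5.73e-04)) and was 6.29 to 13.5 in R50_OFF, all low levels beside PDK1. A kinase of the same family, PDK2, was named after its values were seen. PDK2 stood at 1090 ± 107 in parent, 1951 ± 219 in R50 and 1432 ± 92.5 in R50_OFF, with no overlap between groups. PDP1, the phosphatase that switches pyruvate dehydrogenase back on, rose from 2474 ± 85.3 to 5498 ± 708 in R50, 2.21 times the parent mean (adjusted p = 3.39e-07), and was 2989 ± 123 in R50_OFF. PDP2, the other phosphatase, was lower than in parent in both R50 (-0.38 (adjusted p = 0.00107)) and R50_OFF (-0.47 (adjusted p = 3.19e-04)). TXNIP, which restrains glucose uptake, did not differ beyond the threshold in R50 (-0.03 (adjusted p = 0.707)) and was lower in R50_OFF than in parent (-0.82 (adjusted p = 8.88e-07)) and in R50 (-0.79 (adjusted p = 7.84e-07)).

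Further enzymes and carriers of the same pathways formed a list of 42 genes, of which 41 were in the table and 28 were tested; the rest of the 41 were under the minimum level. In R50 against parent 8 rose and 11 fell, with a median of -0.15, so that 67.9% were called, near the 63.3% of all tested genes. In R50_OFF 5 were higher and 12 lower than in parent (median -0.23, 60.7% called beside 52%), and 5 were higher and 9 lower than in R50 (median -0.05, 50% called beside 59.5%). The subunits of the mitochondrial pyruvate carrier, which work as a pair, went in opposite directions. MPC2 had 1903, 2094 and 2053 in parent, 605, 577 and 591 in R50 and 518, 512 and 493 in R50_OFF, and fell in R50 (log2 change -1.77, SE 0.055, adjusted p = 7.55e-10) and R50_OFF (log2 change -1.99, SE 0.055, adjusted p = 1.45e-09). MPC1 had 531, 585 and 579 in parent, 1011, 1146 and 1063 in R50 and 948, 883 and 906 in R50_OFF, and rose in both (0.92 and 0.69, adjusted p = 3.95e-07 and 7.94e-06). Neither resistant line overlapped the parent in either subunit. H6PD, which starts a pentose phosphate route inside the endoplasmic reticulum, fell from 929 ± 87.1 in parent to 394 ± 35.4 in R50 (-1.23 (adjusted p = 3.57e-07)) and 389 ± 7.59 in R50_OFF (-1.25 (adjusted p = 7.91e-07)). ENO3, the muscle enolase, was higher in R50, at 212 ± 7.6, than in R50_OFF, at 65.2 ± 18.2 (-1.72 (adjusted p = 6.93e-06)), with 122 ± 5.01 in parent. Among sugar transporters, SLC2A12 rose in R50 (2.07 (adjusted p = 1.18e-04)) at a low level of 22.1 to 25.8, SLC2A6 was lower in R50_OFF than in parent (-1.26 (adjusted p = 3.81e-05)), and SLC2A8 and the lactate dehydrogenase LDHD were lower in R50_OFF than in R50 (-0.68 and -1.09, adjusted p = 5.22e-05 and 0.022).

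The lines are clonal, so each member was set beside its chromosome and beside the tested genes within 5 Mb on each side. Against the median of that window, the members' median difference was -0.24 in R50 against parent, -0.03 in R50_OFF against parent and 0.14 in R50_OFF against R50. HK2, PDK1, RPIA and RPE lie on chromosome 2, where the median change over 1113 tested genes was -0.34 in R50 against parent and -0.05 in R50_OFF against parent. RPE and RPIA, with -0.33 and -0.26, changed about as much as that median, and HK2 and PDK1 stood 0.77 and 0.69 below it on the log2 scale. PFKL (-0.44) lies on chromosome 21, with a median of -0.34 in R50, and PCK2 (1.64) on chromosome 14, with a median of 0.30. TPI1, GAPDH and ENO2 lie close together on chromosome 12 and share most of a window with a median of 0.08 to 0.09, with changes of -0.40, -0.25 and -1.37 in R50. DNA copy number was not analysed here, and its part in these changes was not tested.

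**Figure D4:**
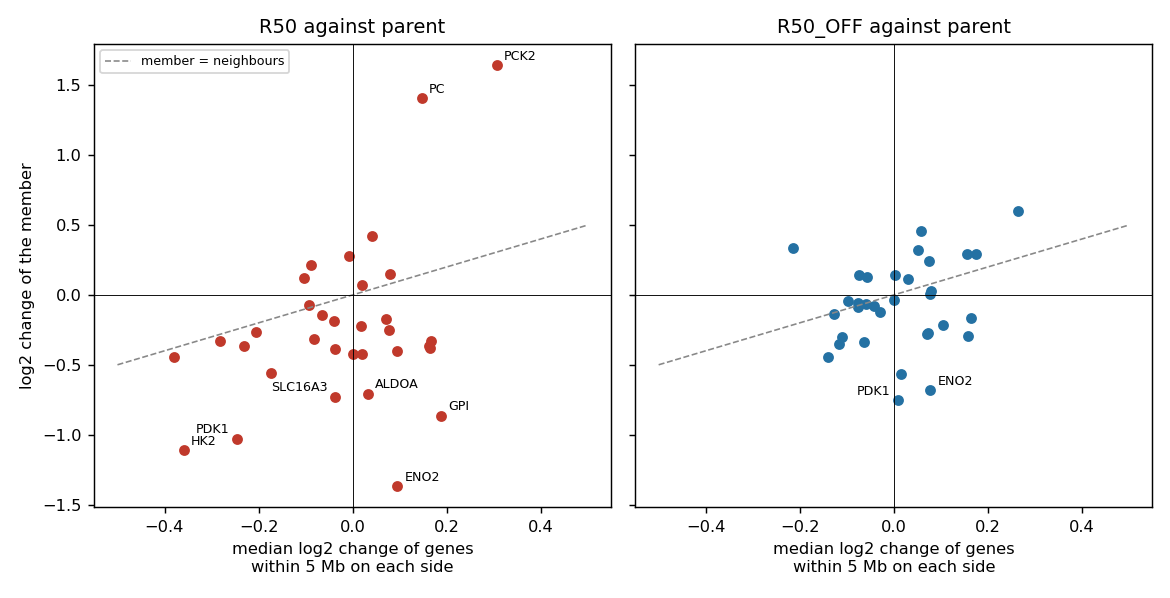
Each point is a member; the x axis is the median log2 change of tested genes within 5 Mb on each side and the y axis the member's own log2 change, in R50 (left) and R50_OFF (right) against parent, with a dashed line where they are equal. Names mark members more than 0.6 from that line; in R50 these are ENO2, GPI, PDK1, HK2, ALDOA and SLC16A3 below it and PC and PCK2 above it, and in R50_OFF ENO2 and PDK1 below it.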

How the data were processed

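Strand-specific poly-A libraries were read as single ends of 50 bases, per the labels' protocols; of the tools, only bcl2fastq (2.17.1.14) and the build hg38 are named, in the submitters' processing notes. Per the file headers, the authors deposited a linear signal that was normalized, by a method the headers do not name, and expressed per kilobase of median transcript length. The values of a gene were whole multiples of a step (100% of genes, tolerance 0.01 reads), which gave the traced reads; no count test was run, because the deposited values are divided by length. Of the gene IDs 33137 (99.62%) matched symbols and GENCODE version 44. Changes were tested on log2(signal + 1) by limma (3.58.1, R 4.3.3) with trend, all 9 libraries and 6 residual degrees of freedom, for genes of at least 10 in at least 3 libraries, two-sided with Benjamini-Hochberg adjustment over 16456 genes; the fit was tested on simulated data. Division by length moves levels between genes but not changes, and the log2(signal + 1) scale understates changes of low genes. Isozyme ratios used exact permutation tests in scipy 1.17.1. Promoter sequences are from RefSeq (GRCh38.p14). The members and lists were chosen with earlier results of these data known. Values per library are given for isozyme pairs and for the 8 members with the largest called change per comparison. Of other lists, up to 4 genes with the largest called change are named, besides those said to be named after their values were seen. Alternatives were pseudocounts of 0.1 and 8, no filter, a minimum of 50, quantile normalization, no trend, only the 6 libraries compared, a replicate block, each library left out and, chosen after seeing the data, scaling to the total signal. SLC2A10, AQP4 and the glioma stem-like cells of the series text were not analysed here.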

Additional observations from a re-analysis of the deposited data

How the results depend on the processing

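Each comparison was refitted under 18 alternatives. In R50 against parent, 8 members were higher after quantile normalization and 8 with scaling to the total signal, in place of 4, and the median change was -0.17 and -0.18 in place of -0.33; in R50_OFF against R50 it was 0.11 and 0.13 in place of 0.25. The other counts of members stayed within 1.5 times. With single libraries left out, R50 against parent gave 4 to 6 higher and 21 to 23 lower (median -0.37 to -0.30), R50_OFF against parent 6 to 9 and 10 to 14 (-0.10 to -0.05), and R50_OFF against R50 16 to 18 and 4 to 5 (0.19 to 0.26). Quantile normalization put GAPDH at 0 in R50 against parent, its rank by signal being 5 in every library of both groups. In the same comparison it turned PKM (0.22), LDHA (0.086), SLC16A1 (0.0029), PDHA1 (0.064) and TKT (0.017). It also turned PKM (0.10) in R50_OFF against parent. In R50_OFF against R50 it turned HK1 (-0.15), PKM (-0.11), LDHA (-0.11), SLC16A1 (-0.14) and TKT (-0.093). By signal PKM ranked 10 to 11 in parent and 7 to 9 in R50, and LDHA ranked 9 in parent and 7 to 9 in R50. Scaling to the total signal turned SLC16A1 (0.012) and PDHA1 (0.080) in R50 against parent, and HK1 (-0.071), PGK1 (-0.11), LDHB (-0.0021), SLC16A1 (-0.11), PDHB (-0.048) and TKT (-0.012) in R50_OFF against R50. With single libraries left out, TPI1 ran from -0.049 to 0.053 and TALDO1 from -0.0049 to 0.091 in R50_OFF against parent, and GAPDH from -0.073 to 0.038, SLC16A1 from -0.052 to 0.090 and PGK1 from -0.0017 to 0.024 in R50_OFF against R50. The cause was not tested. Replicate numbers did not pair the samples, with correlations of -0.02 to 0.10 between deviations of same-numbered libraries; a replicate block gave 5 higher and 22 lower, 8 and 12, and 18 and 5 in the 3 comparisons, adding PGLS in R50 against parent (adjusted p = 0.0482). PDHB and PFKM in R50_OFF against parent and PDK1 in R50_OFF against R50 each lost their call under 8 of the 18 alternatives. In R50_OFF against parent PFKL passed without parent replicate 1 (-0.22), R50 replicate 2 or R50 replicate 3 (-0.16), and ALDOA without R50 replicate 2 (0.46); in R50_OFF against R50 LDHA passed without R50 replicate 1 (0.18) or R50 replicate 2 (0.19), and in R50 against parent PGLS without R50 replicate 2 (0.23).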

Other observations

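Other genes of the further list, named here after their values were seen, concern how cytosolic NADH reaches mitochondria and how glucose is handled. GPD2, the mitochondrial enzyme of the glycerol phosphate shuttle, stood at 4857 ± 93.2 in parent, 3803 ± 363 in R50 and 3896 ± 49.1 in R50_OFF, and fell in both resistant lines (-0.36 and -0.32, adjusted p = 3.84e-04 and 0.0012). MDH1, the cytosolic malate dehydrogenase, fell in R50 (-0.32 (adjusted p = 3.25e-04)) from 12439 ± 95.9 to 9939.7 ± 333 and stood at 12367 ± 913 in R50_OFF. GOT1, of the same list, went the other way in R50 (0.14 (adjusted p = 0.0193)), from 2995 ± 143 to 3309 ± 91.7. It stood at 3461 ± 62.2 in R50_OFF. ADPGK, an ADP-dependent glucokinase, fell in R50 from 4549 ± 119 to 2796 ± 119 (-0.70 (adjusted p = 1.78e-07)) and was 3354 ± 42.3 in R50_OFF (-0.44 (adjusted p = 1.42e-05) against parent). BPGM, which diverts carbon around phosphoglycerate kinase, fell in both lines (-0.78 and -0.44, adjusted p = 7.92e-07 and 1.14e-04). PDHX, the component that anchors the E3 enzyme of pyruvate dehydrogenase, rose in both (0.38 and 0.39, adjusted p = 2.22e-04 and 3.14e-04). EPAS1 and HIF1A, the oxygen-regulated subunits of hypoxia-inducible factors, differed in opposite directions in R50 against parent (-0.86 and 0.38, adjusted p = 3.85e-08 and 1.46e-04), with signals of 16227 ± 528 and 33369 ± 2205 in R50 and 29364 ± 617 and 25555 ± 534 in parent. In R50_OFF EPAS1 stood at 25365 ± 969 and HIF1A at 23699 ± 1210, and all its libraries lay below the parent in both genes.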
